A study of Rattus norvegicus with 20 samples.

Results

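The 7 genes described here serve haem metabolism and electron transfer in the liver and were followed over the dose range of a rat toxicogenomic study: Alas1, Alad, Urod, Cpox and Fech of haem synthesis, Blvrb of haem breakdown, and Por, the reductase that feeds electrons to cytochrome P450. They were taken by symbol, as every probe set that the array annotation pairs with exactly 1 of these names. The rule gave 8 probe sets for the 7 genes, 2 of them for Por, out of 31042 tested probe sets that stand for 14217 gene symbols. Male Harlan Sprague-Dawley rats received isodecyl diphenyl phosphate (IDDP), an organophosphate ester used as a flame retardant and plasticiser, in corn oil by oral gavage. Dosing ran for 4 consecutive days, and left-lobe liver was taken on day 5. The groups held 3 rats each at 66, 132, 263.6, 527.1 and 1054.2 mg/kg body weight (2.7 mmol/kg at the highest dose), and 5 control rats that received corn oil alone. Each of the 20 arrays held whole-liver RNA of 1 rat, so every level below is an average over the cell types of the tissue, and a smaller share of a cell type cannot be told apart from less RNA per cell.

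Haem is the iron porphyrin at the catalytic centre of the cytochrome P450 enzymes, and the liver makes much of its haem for them. Synthesis starts in the mitochondrion with ALAS1, the rate-limiting enzyme in hepatocytes, which haem itself represses. It passes through porphyrin intermediates in the cytosol and ends in the mitochondrion, where ferrochelatase inserts iron. Haem oxygenases open the ring to biliverdin, which biliverdin reductases turn into bilirubin. P450 reductase passes electrons from NADPH to P450 enzymes and to haem oxygenase in the endoplasmic reticulum.

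At the highest dose the gene of the rate-limiting enzyme and that of biliverdin reductase B were higher than in the controls. The later synthesis genes Alad, Urod, Cpox and Fech differed by -0.21, 0.11, -0.06 and -0.10 log2 units, and none passed the test. Every rat at that dose was below every control for Alad and above every control for Urod. Of all probe sets 5.81% and 6.6% were so. Alas1 rose 2.10-fold and Blvrb 1.70-fold at 1054.2 mg/kg. Por was 1.70-fold and 1.44-fold higher by its 2 probe sets, with rats that differed too much for either to pass the test. Blvrb was above every control rat at each dose of 132 mg/kg and over, whereas Alas1 was above every control rat at 1054.2 mg/kg and at no lower dose. Of all probe sets 4.32%, 4.82%, 7.04% and 6.6% were above every control at 132, 263.6, 527.1 and 1054.2 mg/kg. Both genes passed the test against the controls at 1054.2 mg/kg only.

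The promoters of the 3 genes with the largest changes are given here because they are the stretches on which regulation of these genes is usually studied. Each is 250 bases before to 50 bases after the start of the gene, 5′ to 3′ on the strand of the gene, from RefSeq annotation of the rat assembly GRCr8. The table of promoters held 6 of the 7 genes, all but Cpox. Both strands were searched for 6 motifs, none of which overlapped another match in these windows. In Alas1, at chr8:115768593-115768892 on the minus strand, the capitals mark TGCGCATG read on the opposite strand, part of the site of nuclear respiratory factor NRF1, at bases 2 to 9 after the start.
Alas1: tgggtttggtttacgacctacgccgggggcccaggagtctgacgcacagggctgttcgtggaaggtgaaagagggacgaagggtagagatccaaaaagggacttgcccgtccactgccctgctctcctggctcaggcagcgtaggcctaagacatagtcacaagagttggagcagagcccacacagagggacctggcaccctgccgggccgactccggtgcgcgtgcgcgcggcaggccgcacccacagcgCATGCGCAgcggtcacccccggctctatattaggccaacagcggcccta
In Blvrb, at chr1:91866008-91866307 on the plus strand, the capitals mark AGTTCA read on the opposite strand, a 6-base core of nuclear receptor sites, at bases -17 to -12.
Blvrb: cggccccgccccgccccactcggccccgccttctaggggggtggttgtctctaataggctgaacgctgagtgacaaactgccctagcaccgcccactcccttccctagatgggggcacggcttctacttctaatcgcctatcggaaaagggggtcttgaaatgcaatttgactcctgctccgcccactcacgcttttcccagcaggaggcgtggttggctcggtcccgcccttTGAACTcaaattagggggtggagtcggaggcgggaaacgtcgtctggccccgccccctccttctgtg
In Por, at chr12:26635760-26636059 on the minus strand, the capitals mark AGGTCA read on the opposite strand, the other 6-base core searched, at bases -217 to -212.
Por: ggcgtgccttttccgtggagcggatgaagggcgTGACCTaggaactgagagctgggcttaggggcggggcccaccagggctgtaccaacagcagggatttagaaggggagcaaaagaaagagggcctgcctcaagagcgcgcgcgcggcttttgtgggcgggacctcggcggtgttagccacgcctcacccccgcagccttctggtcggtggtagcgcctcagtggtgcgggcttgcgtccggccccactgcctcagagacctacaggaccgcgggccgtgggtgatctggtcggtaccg
Of all 33469 promoters of this length, 2.11% held TGCGCATG, 14.5% held AGTTCA and 16.2% held AGGTCA. The E-box CACGTG, held by 6.42% of promoters, was found in Alad, at -223 to -218 and at 12 to 17, and in Urod, at -75 to -70. TGACNNNGC, the core of the antioxidant response element (12.1% of promoters), and the D-box TTATGTAA (0.893%) were in none of the 6 windows, and Fech held none of the 6 motifs. A match is a description of the letters, and no match says only that these letters are not in this window.

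The values are log2 intensities, so a difference of 1 unit is a 2-fold difference, and the level of a probe set is not comparable with that of another. Array medians lay between 6.32 and 6.41, and pairwise correlations of arrays across probe sets between 0.977 and 0.996. Hepatocyte markers gave a mean level of 14.7 to 14.8 in every rat. As a sign of RNA quality, 3′ minus 5′ signal was averaged over the actin and GAPDH controls of each array. It was 3.25 in the 132 mg/kg rat 2 and 2.47 in the 263.6 mg/kg rat 2, and between 1.24 and 2.17 in the other 18 arrays. Changes are tested with limma in 1 fit to all arrays, two-sided, with Benjamini-Hochberg adjustment over all tested probe sets and a threshold of 0.05 on the adjusted p. Their errors are standard errors. The p-values set a change against the spread between arrays that the fit leaves, with 1 array per rat. For each probe set limma draws that spread towards a value common to all probe sets. This widens the errors and intervals of the least variable probe sets, such as Urod, and narrows those of the most variable.

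**Figure D1:**
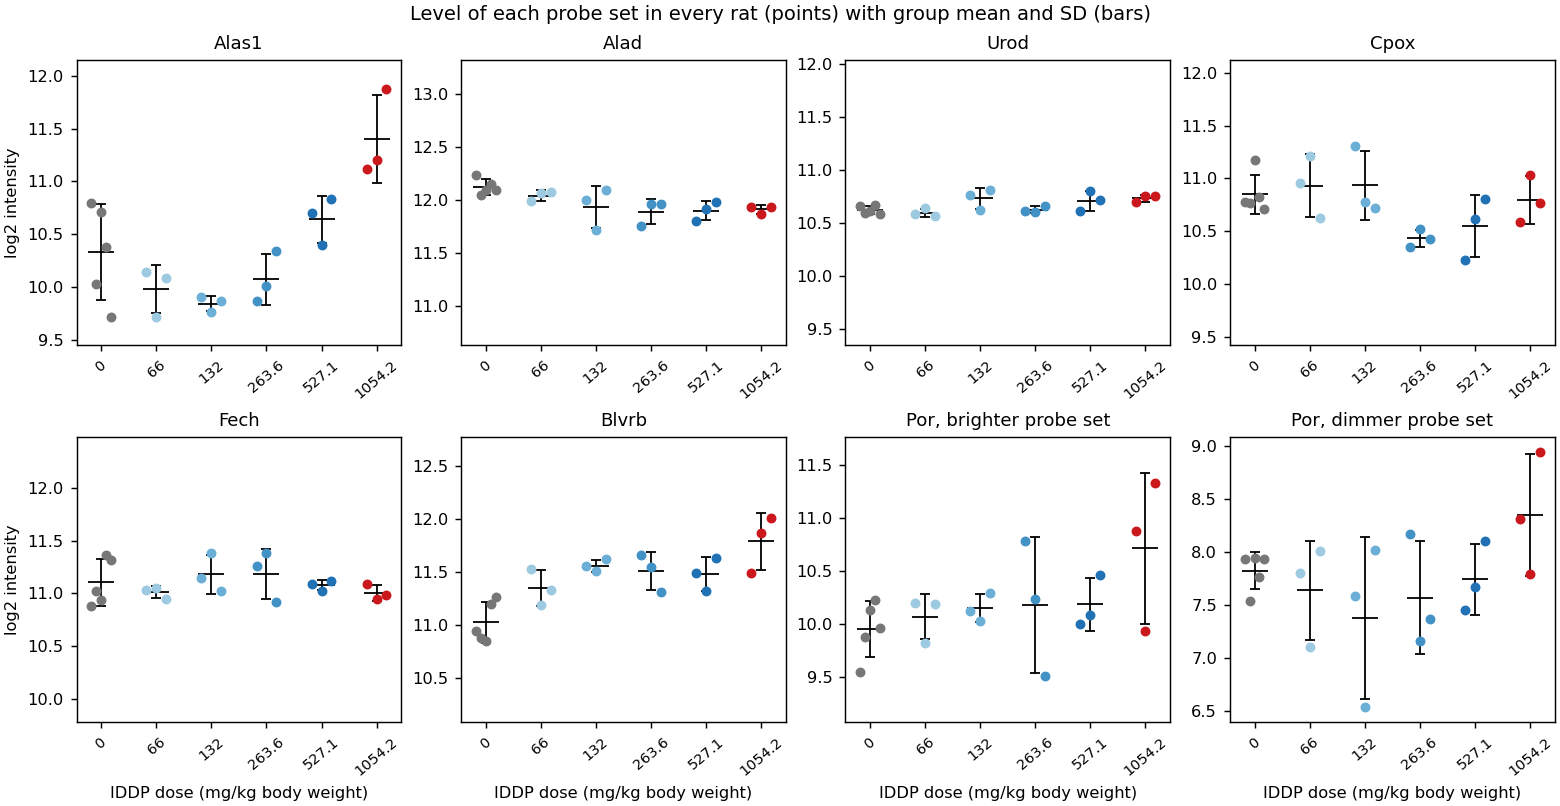
Log2 intensity of the 8 probe sets (y axis) by IDDP dose in mg/kg body weight (x axis, 0 is corn oil). Each point is 1 rat and the bars are the group mean and SD; all panels span the same number of log2 units. Alas1 at 1054.2 mg/kg lies between 11.11 and 11.88, above all other rats, and Blvrb lies above the control rats at each dose of 132 mg/kg and over.

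Alas1 encodes the housekeeping form of aminolaevulinate synthase, which commits glycine and succinyl-CoA to haem. Its level was 10.14, 9.72 and 10.08 at 66 mg/kg, 9.90, 9.76 and 9.87 at 132 mg/kg, and 9.87, 10.01 and 10.34 at 263.6 mg/kg. It was 10.70, 10.40 and 10.83 at 527.1 mg/kg and 11.11, 11.21 and 11.88 at 1054.2 mg/kg, against 10.79, 10.03, 10.71, 10.38 and 9.72 in the controls. All 3 rats at 1054.2 mg/kg were above every other rat of the study, and at the other 4 doses the rats overlapped the controls, which themselves spread over 1.07 log2 units. The mean was 11.40 ± 0.42 at 1054.2 mg/kg and 10.33 ± 0.45 in controls (SD, n = 3 and n = 5). The rise was 1.07 ± 0.21 log2 units, with a 95% interval of 0.63 to 1.51, and passed the limma test (adjusted p = 0.00607). It rested in part on rat 3 of the group: without that array the rise was 0.83 and the adjusted p 0.0721.

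Below the highest dose no Alas1 change passed. The means at 66, 132 and 263.6 mg/kg were below the control mean by 0.35, 0.48 and 0.25 log2 units (limma adjusted p = 1, 0.294 and 0.686), and the mean at 527.1 mg/kg was above it by 0.32 ± 0.21 (adjusted p = 0.566). The 132 mg/kg difference had an unadjusted p of 0.0329 and an interval of -0.92 to -0.04. In order of group means, 1054.2 mg/kg was followed by 527.1 mg/kg, the controls, 263.6, 66 and 132 mg/kg, and only the 1054.2 mg/kg group had no overlap with the next in that order. The step between the 1054.2 and 527.1 mg/kg groups was 0.75 ± 0.24 log2 units, which did not pass over all probe sets (limma adjusted p = 0.597). The slope over dose rank, where the controls have rank 0 and the highest dose rank 5, was 0.18 ± 0.05 log2 units per rank (adjusted p = 0.0559). On log2 dose over the 5 treated groups alone the slope of Alas1 was 0.36 per doubling of the dose and passed (adjusted p = 0.00466).

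Alad, Urod, Cpox and Fech encode the enzymes that turn aminolaevulinic acid into porphobilinogen, uroporphyrinogen into coproporphyrinogen, coproporphyrinogen into protoporphyrinogen, and protoporphyrin into haem. None of the 4 passed the test at any dose. Alad had 11.93, 11.86 and 11.93 at 1054.2 mg/kg, against 12.24, 12.04, 12.10, 12.15 and 12.09 in the controls. Every rat at 263.6, 527.1 and 1054.2 mg/kg was below every control for Alad, and the group means at those doses were 0.23, 0.23 and 0.21 log2 units lower. The limma test of the 3 differences gave adjusted p = 0.282, 0.244 and 0.237, with an interval of -0.40 to -0.03 at 1054.2 mg/kg. The Alad slope over dose rank was -0.05 ± 0.01 per rank (adjusted p = 0.0627), and passed without the 2 arrays of largest 3′ minus 5′ difference (adjusted p = 0.0269).

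Urod varied least, with a spread between rats of the same group of 0.06 log2 units, smaller than in all but 0.345% of probe sets. It had 10.69, 10.75 and 10.76 at 1054.2 mg/kg, against 10.66, 10.59, 10.61, 10.67 and 10.59 in the controls, so the groups did not overlap. The difference was 0.11 ± 0.07 (adjusted p = 0.534; interval -0.04 to 0.26), and the 5 dose means of Urod all lay between 10.60 and 10.73. Cpox had 10.35, 10.52 and 10.42 at 263.6 mg/kg and 10.58, 11.03 and 10.76 at 1054.2 mg/kg, against 10.77, 10.77, 11.17, 10.82 and 10.71 in the controls. The 263.6 mg/kg rats were below all controls, by 0.42 ± 0.16 in the mean (adjusted p = 0.288), while the 1054.2 mg/kg mean differed by -0.06 ± 0.16 (adjusted p = 0.923). Fech overlapped the controls at every dose. Its mean was 11.01 ± 0.08 at 1054.2 mg/kg and 11.10 ± 0.22 in controls (SD, n = 3 and n = 5), a difference of -0.10 ± 0.12 with an interval of -0.35 to 0.15 (adjusted p = 0.788).

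Blvrb encodes biliverdin reductase B, which also acts as a flavin reductase and reduces biliverdin isomers that in humans appear mainly before birth. Its level was 11.53, 11.19 and 11.33 at 66 mg/kg, 11.56, 11.51 and 11.62 at 132 mg/kg, and 11.67, 11.55 and 11.31 at 263.6 mg/kg. It was 11.49, 11.32 and 11.63 at 527.1 mg/kg and 11.49, 11.87 and 12.01 at 1054.2 mg/kg, against 10.95, 10.88, 10.84, 11.20 and 11.26 in the controls. The groups overlapped at 66 mg/kg, where 1 rat lay under the highest control, and at no other dose. Blvrb rose by 0.77 ± 0.13 log2 units at 1054.2 mg/kg (limma adjusted p = 0.00157), with an interval of 0.50 to 1.04, and passed with each of the 8 arrays compared left out in turn. At the lower doses, low to high, the differences were 0.32, 0.54, 0.48 and 0.46, with adjusted p of 1, 0.106, 0.102 and 0.0816.

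The Blvrb means at 132, 263.6 and 527.1 mg/kg were 11.56, 11.51 and 11.48, so they did not climb with dose over that range. The slope over dose rank was 0.13 ± 0.02 per rank and passed (adjusted p = 0.00197). Over the treated groups alone, on log2 dose, the Blvrb slope was 0.08 and did not pass (adjusted p = 0.476). The 1054.2 mg/kg rats overlapped those at 527.1 mg/kg, and the difference of 0.31 ± 0.14 did not pass (adjusted p = 0.806).

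Por had 10.88, 9.93 and 11.33 at 1054.2 mg/kg by its brighter probe set, against 9.55, 9.88, 10.13, 10.23 and 9.96 in the controls. By the dimmer probe set it had 8.31, 7.79 and 8.95, against 7.94, 7.54, 7.94, 7.77 and 7.93 in the controls. By both probe sets rats 1 and 3 were above every control and rat 2 was inside the control range, although that same rat was above every control for Alas1 and Blvrb. The differences were 0.77 ± 0.26 (interval 0.22 to 1.31, adjusted p = 0.128) and 0.53 ± 0.30 (interval -0.10 to 1.15, adjusted p = 0.452). Without rat 2 the difference by the brighter one was 1.16 and passed (limma adjusted p = 0.0165), and without rat 3 it was 0.46 (adjusted p = 0.525). The dimmer one gave 0.80 without rat 2 and 0.23 without rat 3 (limma adjusted p = 0.301 and 0.841). At 66, 132, 263.6 and 527.1 mg/kg the brighter probe set of Por differed by 0.12, 0.20, 0.23 and 0.23, and every one of these groups overlapped the controls. The 263.6 mg/kg rats were the most unequal of them, at 10.78, 10.24 and 9.50.

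The spread of Por between rats of a group, 0.41 and 0.48 log2 units by its probe sets, was larger than that of 97.9% and 98.8% of probe sets, and that of Alas1, 0.33, larger than that of 95.2%; the median over all probe sets was 0.16. The 3 lowest arrays for Por by the dimmer probe set were rat 2 of 132 mg/kg at 6.53, rat 2 of 66 mg/kg at 7.10 and rat 2 of 263.6 mg/kg at 7.16. Their 3′ minus 5′ differences were 3.25, 2.04 and 2.47, against 1.24 to 1.89 in the controls. Also below every control were rat 3 of 263.6 mg/kg at 7.37 and rat 1 of 527.1 mg/kg at 7.45. Those arrays had differences of 1.60 and 1.70, inside the control range. Rat 1 of 132 mg/kg had a difference of 2.17 and a Por level of 7.58, inside the control range. With that difference as a covariate the change at 132 mg/kg was 0.12, against -0.45 without it. The part of RNA quality in the low values of this probe set was not tested further.

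**Figure D2:**
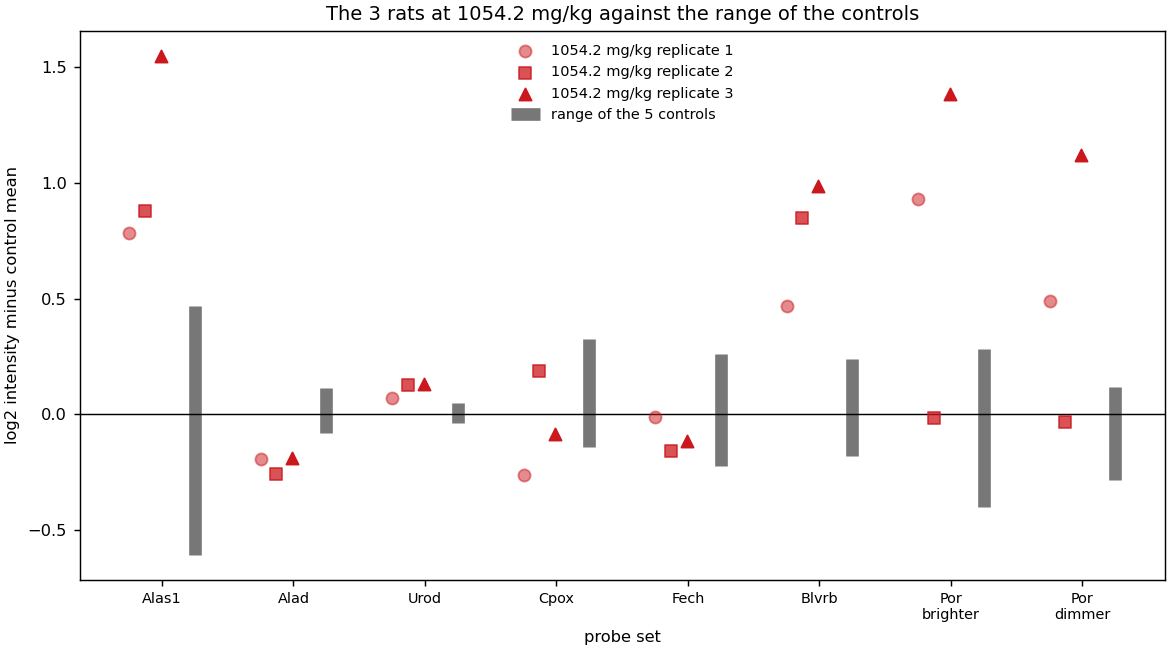
Log2 intensity minus the control mean (y axis) for the 8 probe sets (x axis) in the 3 rats at 1054.2 mg/kg, beside the range of the 5 controls (grey bars). Rat 3 is the highest of the 3 for Alas1, Blvrb and both Por probe sets, and rat 2 is inside the control range for Por.

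Counted over the 8 probe sets, 0 passed at 66, 132, 263.6 and 527.1 mg/kg, where limma called 0.00644%, 0.0677%, 0.428% and 1.68% of all tested probe sets in either direction. At an unadjusted p under 0.05 the counts were 1, 3, 3 and 2 of the 8, where 3.24%, 14.9%, 11.9% and 13.6% of all probe sets had one. At 1054.2 mg/kg 2 passed, Alas1 and Blvrb, both higher, where 3.3% of all probe sets did, and 4 had an unadjusted p under 0.05, where 15.1% of all did. Between 1054.2 and 527.1 mg/kg 0 passed, where 0.0129% of all did, and 2 had an unadjusted p under 0.05, where 6.08% of all did. For the slope over dose rank 1 passed, Blvrb, where 5.05% of all did. The median change of the 8 at 1054.2 mg/kg was 0.32, beside -0.01 over all probe sets.

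Counts of rats without overlap were read in the same way. Every treated rat was above every control for 1 of the 8 at 132, 263.6 and 527.1 mg/kg, where 4.32%, 4.82% and 7.04% of all probe sets were, and for 3 of the 8 at 1054.2 mg/kg, where 6.6% were. The 3 were Alas1, Blvrb and Urod. Every treated rat was below every control for 2 of the 8 at 263.6 mg/kg, Alad and Cpox, where 4.18% of all were, and for 1, Alad, at 527.1 and at 1054.2 mg/kg, where 4.85% and 5.81% were.

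Genes with changes most like those of Alas1 and Blvrb were sought by the root mean square difference of the 5 changes from control. The candidates were 800 probe sets past the threshold at 1054.2 mg/kg with 1 gene symbol. Symbols beginning with LOC or RGD and the probe sets of the member itself were left out before this count. All 5 changes share the same control rats. Every candidate had passed at 1054.2 mg/kg, so a change from control at that dose was set by the choice of candidates. For Alas1 the nearest were Ccn1 (0.27 log2 units), Gclc (0.28), Atf3 (0.30), Sult2a2 (0.31) and Nr3c2 (0.34), with changes at 1054.2 mg/kg between 0.67 and 0.90. Ccn1, a matrix-associated signalling protein, had changes, low to high dose, of -0.14, -0.04, -0.12, 0.06 and 0.90, beside -0.35, -0.48, -0.25, 0.32 and 1.07 for Alas1. For Blvrb they were Raph1 (0.08), Krcc1 (0.09), Zpr1 (0.10), Frk (0.10) and Sirt4 (0.10). Raph1, an adaptor protein of the actin cytoskeleton, had 0.21, 0.43, 0.56, 0.42 and 0.73, beside 0.32, 0.54, 0.48, 0.46 and 0.77 for Blvrb.

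The other genes of the pathway at 1054.2 mg/kg set these members in context, each read by its brightest probe set. At that dose 3.3% of all probe sets passed in either direction. Of the 8 haem synthesis genes measured 1 rose, Alas1, and 7 did not pass, with a median of -0.08. Alas2, the erythroid form of aminolaevulinate synthase, had 7.37, 6.73 and 6.28, against 7.76, 7.61, 7.29, 7.42 and 8.41 in the controls. Rats 2 and 3 were below every control and rat 1 was not, and the difference of -0.91 ± 0.26 missed the threshold (adjusted p = 0.0635), while without rat 1 it was -1.20 and passed (adjusted p = 0.0201) and without rat 3 it was -0.65 (adjusted p = 0.328). With all rats kept, Alas2 passed with dim probe sets left out and with 1 probe set per gene (limma adjusted p = 0.0469 and 0.0433). Uros, which closes the porphyrin ring, had 0.20 ± 0.08 by its brighter probe set (adjusted p = 0.245) and rose by 0.68 ± 0.10 by the other (adjusted p = 0.000406). Ppox, which oxidises protoporphyrinogen, had -0.21 ± 0.10 (adjusted p = 0.365).

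Of the 9 genes of haem breakdown and binding 2 rose and 1 fell, where 3.3% of all probe sets passed. Hmox1, the inducible haem oxygenase, had 9.76, 10.36 and 11.04 at 1054.2 mg/kg, against 9.22, 8.91, 9.13, 9.14 and 9.01 in the controls, so all 3 rats were above every control. It rose 2.47-fold, by 1.30 ± 0.23 log2 units (limma adjusted p = 0.00302). At 263.6 mg/kg Hmox1 had 10.65, 9.79 and 9.46 and at 527.1 mg/kg 9.47, 9.62 and 9.30, also above every control, with differences of 0.89 and 0.38 that did not pass (limma adjusted p = 0.102 and 0.525). At 66 and 132 mg/kg it overlapped the controls, with differences of 0.01 and -0.27. Blvrb was the other gene that rose, and Pgrmc2, a haem-binding membrane protein, fell by 0.32 ± 0.07 (adjusted p = 0.0208), while its other 2 probe sets did not pass. The constitutive oxygenase Hmox2 (0.19), the main adult reductase Blvra (-0.16), the plasma haem and haemoglobin binders Hpx (-0.12) and Hp (0.02), the cytosolic lipid and haem binder Fabp1 (-0.11) and Pgrmc1 (0.29, adjusted p = 0.0939), a haem-binding partner of P450 enzymes, did not pass. Pgrmc1 passed without rat 1 of the 1054.2 mg/kg group (0.37, adjusted p = 0.045) and was 0.24 without rat 2 (adjusted p = 0.358), and the median of the 9 was 0.02.

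**Figure D3:**
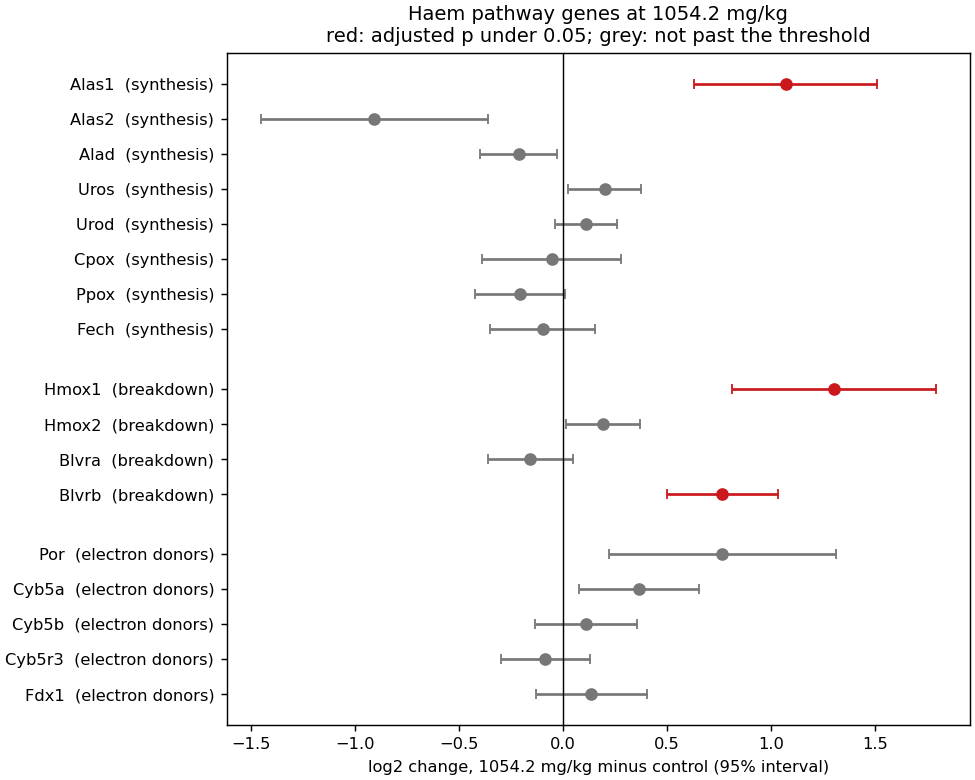
Log2 change at 1054.2 mg/kg minus control (x axis) with its 95% interval for genes of haem synthesis, haem breakdown and P450 electron donation (y axis), each by its brightest probe set. Red points passed the test over all probe sets: Alas1 (1.07), Hmox1 (1.30) and Blvrb (0.77); grey points did not.

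Of the 15 genes of haem and porphyrin transport and of cofactors of synthesis 3 rose and 1 fell, with a median of 0.20. Over all probe sets 3.3% passed. Abcb6, a porphyrin transporter, rose by 0.53 ± 0.12 (adjusted p = 0.0145), Slc48a1, which carries haem out of lysosomes, by 0.51 ± 0.12 (adjusted p = 0.0245), and Lonp1, a mitochondrial protease that degrades ALAS1 in human cells, by 0.32 ± 0.07 (adjusted p = 0.0177). Clpx, a mitochondrial unfoldase that acts on aminolaevulinate synthase in yeast and human cells, fell by 0.57 ± 0.11 (adjusted p = 0.00534). Without rat 3 of the 1054.2 mg/kg group none of these 4 passed, with adjusted p of 0.121, 0.198, 0.11 and 0.0652 in that order, and Pgrmc2 had 0.134. The call was also lost without rat 2 of that dose for Abcb6 and Pgrmc2 (adjusted p = 0.0547 and 0.0536), without rat 1 for Slc48a1 and Lonp1 (0.058 and 0.0649), without control 3 for Slc48a1 (0.0606), and without control 4 for Slc48a1 and Pgrmc2 (0.0575 and 0.0619). Quantile normalization of the values again also ended the call of Slc48a1 (0.46, adjusted p = 0.113), and a fit to only the arrays compared ended those of Lonp1 and Pgrmc2 (adjusted p = 0.0571 and 0.0556).

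Over all probe sets at 1054.2 mg/kg 3.3% passed and 15.1% had an unadjusted p under 0.05. Of the 5 electron donors of P450 measured, 0 passed by limma and 2 had such an unadjusted p. Beside Por these were cytochrome b5, Cyb5a, at 0.365 ± 0.14 (adjusted p = 0.186), Cyb5b at 0.11, the cytochrome b5 reductase Cyb5r3 at -0.09 and ferredoxin Fdx1 at 0.14. With the 3′ minus 5′ difference as a covariate Cyb5a passed (0.38, adjusted p = 0.0296), and it passed under no other alternative run. Of the 5 genes of NADPH supply 1 rose, malic enzyme Me1, by 1.23 ± 0.20 (adjusted p = 0.000916).

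Of the 25 haem-using oxidases and carriers 3 rose and 2 fell, where 3.3% of all probe sets passed, and their median was 0.06. The xenobiotic-metabolising P450 genes Cyp3a23-3a1, Cyp1a1 and Cyp3a18 rose by 1.40, 1.32 and 1.06 (adjusted p = 2.36e-07, 0.00774 and 0.000143), and the call of Cyp1a1 was lost without rat 3 of that dose (0.85, adjusted p = 0.0674). Cyp1a1 was dim, with a control mean of 5.69, below the median level of 6.37 over all probe sets, and had 6.41 to 7.96 at 1054.2 mg/kg. Cyp2c11, the male-specific steroid hydroxylase, fell by 0.83 and Cyp1a2 fell by 0.66 (adjusted p = 6.25e-05 and 0.0011). Of 14 genes named as regulators of Alas1 in liver or as clock factors 4 rose, all of them clock genes: Dbp by 3.44, Nr1d1 by 1.66, Nr1d2 by 1.62 and Tef by 0.94 (adjusted p = 2.44e-07, 0.000473, 2.04e-05 and 0.000143). Dimmer probe sets of Tef had 0.20 and 0.29 and did not pass (limma adjusted p = 0.604 and 0.684). Of the dimmer ones of Nr1d2, 1 rose by 1.37 (adjusted p = 0.000618). Another, with a control mean of 3.91, had 0.02 (adjusted p = 0.831). The clock factor Hlf had a mean of 8.94, against 8.82 in the controls, and did not pass. The drug receptors Nr1i2 (-0.20) and Nr1i3 (0.39), the coactivator Ppargc1a (0.11) and Nrf1 (0.04) did not pass. Of the same 14 genes 3 were already higher past the threshold at 263.6 mg/kg and 4 at 527.1 mg/kg. Over all probe sets 0.428% and 1.68% passed at those doses. The mean of Nr1d1 was 9.06 at 527.1 mg/kg and 8.43 at 1054.2 mg/kg, while Dbp, Nr1d2 and Tef had their highest means at 1054.2 mg/kg.

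Markers of other cells were also compared with the controls. Over all probe sets 3.3% passed at 1054.2 mg/kg and 15.1% had an unadjusted p under 0.05. All 8 erythroid markers measured, Alas2 among them, were lower in the mean at 1054.2 mg/kg and 0 passed by limma, with 3 at an unadjusted p under 0.05. The mean over the list was 6.34 to 6.80 at 1054.2 mg/kg and 6.72 to 7.16 in the controls. Hbb, the beta-globin gene, had 13.06, 11.81 and 11.60 at 1054.2 mg/kg, a difference of -0.77 ± 0.25 (adjusted p = 0.104), and rat 1 was the highest of the 3 for Alas2 and for Hbb. For Kupffer cells and other macrophages 6 of 9 markers fell, and the mean over the list was 9.35 to 9.46 at 1054.2 mg/kg, against 9.73 to 10.23 in the controls. The Kupffer list was lower at other doses too: its mean was 9.39 to 9.58 at 132 mg/kg, below every control, and 9.46 to 9.73 at 527.1 mg/kg, overlapping them by 1 rat. The median change of the 9 was -0.21, -0.59, -0.28, -0.34 and -0.54, low to high dose, and 0 passed by limma below 1054.2 mg/kg, with 2, 7, 4 and 8 at an unadjusted p under 0.05. Of all probe sets 3.24%, 14.9%, 11.9% and 13.6% had such an unadjusted p. The 6 were Cd5l, Clec4f, C1qa, C1qb, C1qc and Csf1r, with changes between -0.74 and -0.46, and without rat 3 of that dose none of the 6 passed (limma adjusted p = 0.0563 to 0.115). C1qa, C1qb, C1qc and Csf1r also missed the threshold without rat 1 or rat 2 of that dose and without control 1 or control 4, C1qa and C1qc without control 2, and C1qa without control 3 (limma adjusted p = 0.0516 to 0.129). The call of C1qa was also lost with array medians centred (-0.44, adjusted p = 0.0512). Of 6 hepatocyte markers 0 passed, and 0 had an unadjusted p under 0.05. The part of red cells and macrophages in the changes of the haem genes was not tested.

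**Figure D4:**
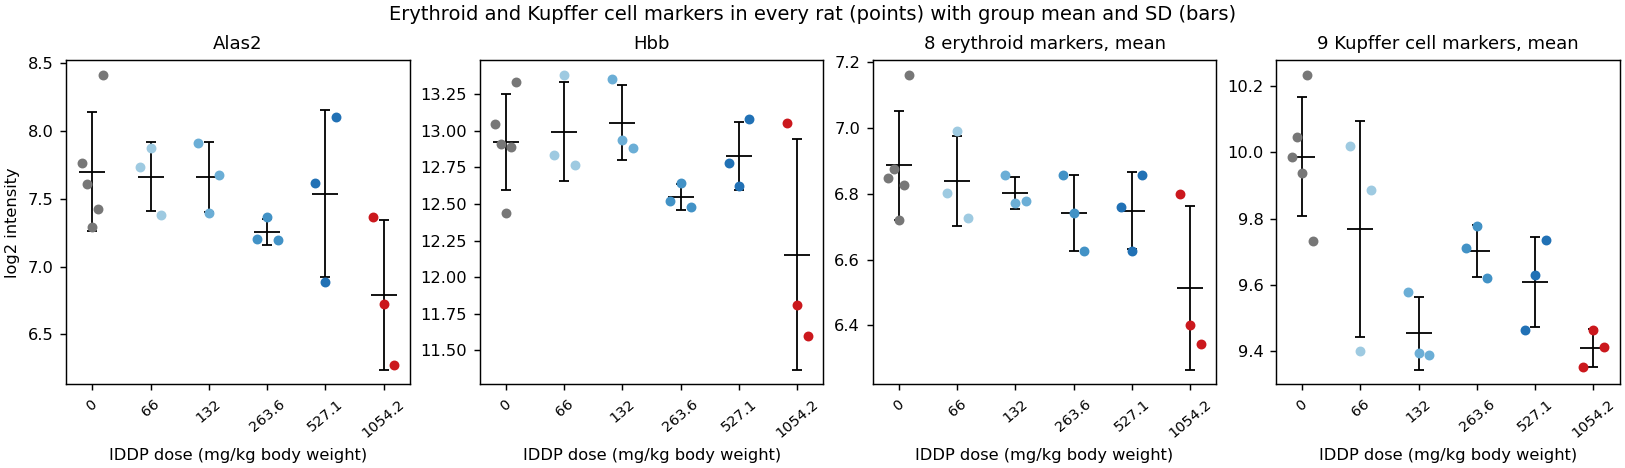
Log2 intensity (y axis) of Alas2, Hbb, the mean of 8 erythroid markers and the mean of 9 Kupffer cell markers by IDDP dose in mg/kg (x axis, 0 is corn oil). Points are rats and bars are group mean and SD; the Kupffer mean lies between 9.39 and 9.58 at 132 mg/kg and between 9.35 and 9.46 at 1054.2 mg/kg, below all 5 controls at both, and the erythroid mean between 6.34 and 6.80 at 1054.2 mg/kg.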

How the data were processed

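Liver RNA of 20 rats was hybridised to Affymetrix arrays, 1 array per rat, and samples were grouped by the dose in the labels. The authors deposited 1 log2 intensity per probe set and array, made by RMA (per the submitters' processing notes), whose version is not given in the sources used here. RMA puts all arrays on 1 distribution, so levels are relative. Of 31099 probe sets 57 Affymetrix controls were left out. Symbols came from the array annotation: 20826 probe sets had 1 symbol, 436 had several and 9780 are unnamed here. The deposited values were fitted in limma 3.58.1 (R 4.3.3) with 1 mean per group and eBayes (14 residual and 5.75 prior degrees of freedom), with no filter on brightness and Benjamini-Hochberg adjustment over 31042 probe sets. The procedure was tested on simulated data. The number of arrays limits the precision.

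The members and lists were chosen with earlier results of these data known. The text names every probe set of the 7 genes, every gene of the haem synthesis, breakdown and electron donor lists, from other lists up to 4 genes past the threshold of largest change at 1054.2 mg/kg, and the 5 genes most like each member past the threshold at any dose. Hbb, the 6 Kupffer cell markers, Cyp1a2, Nr1i2, Nr1i3, Ppargc1a, Nrf1 and Hlf were named outside this rule, after their values were seen. A gene of several probe sets was read from the brightest. Alternatives changed the normalization, probe sets tested, variance model, arrays in the fit, replicate block, RNA quality covariate and dose scale. Raw array images and toxicological measures were not analysed here.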

Additional observations from a re-analysis of the deposited data

Results flagged for a closer look

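Of the 8 probe sets, 1 had a control rat far from the others. Cpox was 11.17 in control rat 3, while the other 4 controls lay between 10.71 and 10.82, and the gap to the nearest was 0.755 of the range of the 5. Chance alone gives such a gap in about 1 in 20 groups, and 8 were looked at. Without that rat the difference of Cpox at 263.6 mg/kg was -0.34, against -0.42 with it, and it passed in neither case.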

How the results depend on the processing

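Alas1 and Blvrb passed at 1054.2 mg/kg under all 9 alternatives that left out no rat of that dose, and the count of members past the threshold was 1 to 3 with arrays left out in turn, with 1 without rat 3 of that dose and 3 without rat 2. Members past the threshold for the slope over dose rank numbered 3, not 1, with dim probe sets left out, with 1 probe set per gene, with the 3′ minus 5′ covariate and without the 2 arrays of largest 3′ minus 5′ difference (an alternative added after seeing the data), the added ones being Alas1 and Alad; with arrays left out they numbered 1 to 3, with 3 without rat 2 of 132 mg/kg and 2 without control 1, control 3, or rat 1 or rat 2 of 263.6 mg/kg. The cause was not tested. In the haem synthesis list 2 genes rose, not 1, when each gene was read from the probe set of largest interquartile range, which takes the other probe set of Uros.

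Counts over all probe sets moved more. With only the arrays compared they were 11 at 66 mg/kg, 826 at 527.1 mg/kg and 0 for 1054.2 against 527.1 mg/kg. At 132 mg/kg they were 50 with quantile normalization again, 46 without dim probe sets, 12 with a trended robust variance and 11 without the 2 arrays of largest 3′ minus 5′ difference, against 21. At 263.6 mg/kg they were 75 with array medians centred, 222 with quantile normalization again and 56 without those 2 arrays, against 133. The covariate gave 839 at 527.1 mg/kg, against 520, and 8 for 1054.2 against 527.1 mg/kg, where leaving out dim probe sets gave 2, against 4. On log2 dose over treated groups the slope passed for 138, against 1569. With arrays left out in turn the counts were 0 to 3 at 66, 6 to 1482 at 132, 38 to 193 at 263.6, 212 to 509 at 527.1 and 405 to 1069 at 1054.2 mg/kg, 1 to 8 between the highest doses and 1092 to 1919 for the slope; 1482 was without rat 3 of 132 mg/kg, 38 without rat 2 of 263.6 mg/kg, 212 without rat 3 of 527.1 mg/kg and 405 without rat 3 of 1054.2 mg/kg.

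Over all probe sets, pairing by replicate number was weak at most. Same-numbered arrays had a median correlation of deviations of 0.067, against -0.016 for different-numbered arrays. The correlation was over 0.1 in 15 of 45 same-numbered pairs and in 28 of 120 others. Of 20 arrays 7 correlated best with an array of their own number. The 3′ minus 5′ difference did follow the number in the treated groups. Rat 3 had the lowest value in each of them, 1.56, 1.49, 1.60, 1.59 and 1.55, low to high dose. Rat 2 had the highest at 66, 132, 263.6 and 527.1 mg/kg, at 2.04, 3.25, 2.47 and 1.78. Among the controls rat 3 had the highest, 1.89. What the numbers stand for is not given in the labels. The fit with a replicate block kept the member calls and gave 78, 283 and 614 probe sets at 263.6, 527.1 and 1054.2 mg/kg, 1 between the highest doses and 930 for the slope. It ended the calls of Abcb6, Lonp1, Slc48a1, Pgrmc2, C1qa, C1qc and Csf1r (adjusted p = 0.0522 to 0.155).

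The changes that reversed had all missed the threshold. For Fech they were 0.063 at 66, 0.13 at 527.1, 0.059 at 1054.2 mg/kg and 0.014 for the slope with the block, -0.076 at 132 mg/kg with the covariate, and -0.022 at 132 and -0.019 at 263.6 mg/kg without the 2 arrays. For Urod at 263.6 mg/kg they were 0.0057 with quantile normalization, 0.0029 with the block, 0.019 with the covariate and 0.011 without the 2 arrays. Alad between the highest doses was -0.0048 with quantile normalization, and Por by its dimmer probe set at 132 mg/kg was 0.12 with the covariate. With arrays left out in turn Urod at 263.6 mg/kg was -0.020 to 0.011. Cpox was -0.059 to 0.24 at 66, -0.10 to 0.19 at 132 and -0.17 to 0.050 at 1054.2 mg/kg. Fech was -0.022 to 0.16 at 132, -0.019 to 0.21 at 263.6 and -0.083 to 0.038 at 527.1 mg/kg and -0.017 to 0.0028 for the slope. Between the highest doses Alad was -0.036 to 0.053 and Urod -0.024 to 0.069. Por by its dimmer probe set was -0.37 to 0.079 at 66 and -0.27 to 0.064 at 527.1 mg/kg, and by its brighter one -0.078 to 0.56 at 263.6 mg/kg. At 1054.2 mg/kg Hp was -0.017 to 0.050 and Cyb5r3 -0.17 to 0.040.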
